A study of Mus musculus with 6 samples.

Results

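The 3 vehicle libraries of a mouse eosinophil RNA sequencing study were described gene by gene, to show which transcripts a resting, IL-5 matured culture holds and how far parallel libraries differ. They were chosen by their label, treatment with phosphate-buffered saline (PBS), and are 3 of the 6 libraries of the series. The other 3, from cells given IL-33, were not used here. Each library has a value for 23420 genes. A gene was counted as present when its normalised read count, defined below, was at or above 10 in all 3 PBS libraries, and 10012 genes (42.7%) met this. Every count of present list members below is to be read against this 42.7%.

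Eosinophils are granulocytes that mature in the bone marrow under GATA and C/EBP transcription factors and the cytokine IL-5. They store cationic proteins and ribonucleases in granules, respond to eotaxin through the chemokine receptor Ccr3, and carry Siglec-F, an inhibitory lectin that marks the lineage in mice. IL-5 acts through a specific alpha chain, Il5ra, and a signalling beta chain shared with the IL-3 and GM-CSF receptors, and it keeps the cells alive through JAK and STAT proteins.

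The cells were wild-type (WT) bone marrow derived eosinophils. Marrow cells were grown with stem cell factor and FLT3 ligand at 100 ng/mL each until day 4, and from then on with IL-5 at 20 ng/mL. On day 14 dead cells were taken out and the cells were kept without IL-33 for 3 hours. Strain, sex and age are not given in the labels, nor is it stated that the 3 libraries came from separate mice or cultures. The spread between them may therefore be technical. Resting here means unexposed to IL-33, since the medium had held IL-5 from day 4. The labels' protocols name no sort on a surface marker. Total RNA depleted of ribosomal RNA was sequenced, which keeps transcripts without a poly(A) tail in the libraries.

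Each deposited value is a count of reads on a gene divided by a factor for its library, called a normalised count below. It is not corrected for length, so where a list is given in order of count the order describes reads, and levels of different genes are compared per kilobase of exon. The exon length is that of the annotated gene and not of the transcripts in use, so ratios per kilobase between genes are approximate. The PBS libraries held 8761710, 8981930 and 8218303 reads in replicates 1, 2 and 3. Rn45s, which encodes the precursor of ribosomal RNA, took 2169666, 2088831 and 1126757 of these reads, or 24.8%, 23.3% and 13.7% (mean 20.6% ± 5.99, SD, n = 3). Replicate 3 stood below the other 2 in this share. Reads on Rn45s may come from the precursor or from ribosomal RNA left after depletion, and the 2 were not told apart. Between 6592044 and 7091546 reads were left for other genes. A read was worth 0.777, 0.728 and 0.699 normalised counts, so a value of 10 stood for 12.9, 13.7 and 14.3 reads. A gene listed at 0 may still have had up to 2.33, 2.18 or 2.10 normalised counts, the worth of 3 reads. These limits cover counting error only, because the reads carry no molecular identifiers and several may stem from the same molecule.

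Of the 23420 genes, 7360 (31.4%) had no read in any PBS library and 5183 had reads but stayed under 10 in all 3. A further 865 genes reached 10 in 1 or 2 of the libraries. At the upper end, 5755 genes (24.6%) were at or above 100 in all 3, 994 (4.24%) at or above 1000 and 28 at or above 10000. Protein-coding genes held 93.1% ± 0.456 (SD, n = 3) of the signal other than Rn45s. Long intergenic non-coding RNAs held 3.97% ± 0.361 and Rpph1 nearly all of the 1.62% ± 0.188 that fell on ribozymes.

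The signal was concentrated in few genes. With Rn45s counted, the 100 genes of highest mean held 43.6%, 42.4% and 35.0% of replicates 1, 2 and 3 (mean 40.3% ± 4.67, SD, n = 3). Without Rn45s the libraries were closer, at 25.1%, 25.0% and 24.7% (24.9% ± 0.214). The top 10 genes then held 10.9% ± 0.532 and the top 1000 held 59.5% ± 0.345. On this total 626 genes carried 50% of the signal and 4095 carried 90%.

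**Figure D1:**
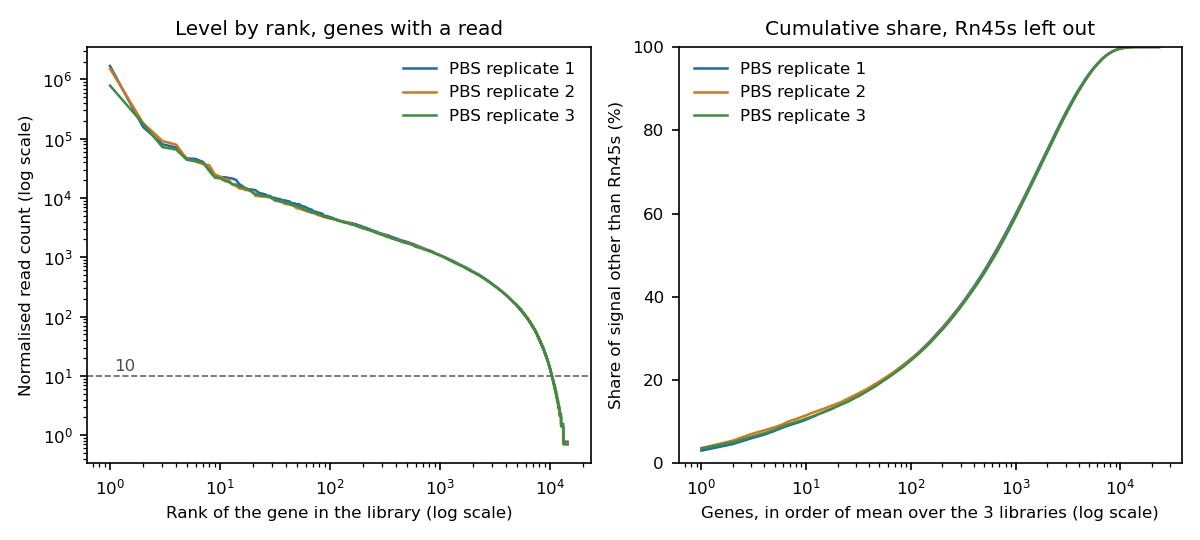
Left, the normalised count of each gene against its rank in its library, both on log scales, with 1 line per PBS library and a dashed line at 10. Right, the cumulative share of the signal other than Rn45s against the number of genes, ordered by their mean over the 3 libraries (log scale). The lines of the 3 libraries lie close together except at the first gene on the left, Rn45s, where replicate 3 is lower.

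After Rn45s the highest mean belonged to Malat1, a nuclear long non-coding RNA on chromosome 19, with 157023, 183301 and 178654 normalised counts in replicates 1, 2 and 3. Rpph1, the RNA of ribonuclease P, followed with 80649, 91286 and 71898, although 73.0% of its exonic bases overlap other genes. Among protein-coding genes Myh9, the heavy chain of non-muscle myosin, came first with 70888, 79359 and 65537. Syne1, a giant protein of the nuclear envelope, varied little, with 45516, 44740 and 44009. Csf2rb, the common beta chain of the IL-5, IL-3 and GM-CSF receptors, ranked 6th among all genes of the table with 46500, 35615 and 39807. Its mouse paralogue Csf2rb2, the IL-3 specific beta chain, ranked 11th with 22425, 20176 and 21500. The 2 genes are near-identical in part, so how their reads were divided is uncertain.

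The rest of the 30 highest genes fell into a few known classes. Actin and its partners were represented by Actb (mean 40030), Flna (16209), Iqgap1 (14557), Coro1a (11386) and Tln1 (11079), and the cytolinkers by Plec (20642). Lysosomal and iron-storage genes included the protease Ctsd (22383), the mannosidase Man2b1 (10971) and the ferritin chains Ftl1 (17299) and Fth1 (11166). Reads on Ctsd and Ftl1 may be shared with other genes, since 34.4% and 34.6% of their exonic bases overlap another gene. Surface and secreted products were Adam8 (14151), Itgam (13286), Thbs1 (12824), Csf1 (11525) and Sirpa (10620). Slc7a11, the cystine transporter, had a mean of 18876. Of the nuclear RNAs Neat1 also reached this group, with a mean of 21504. Alox15, Ahnak, Abr, Hmha1 and Nbeal2 had means between 9503 and 13435. The granule gene Prg2 ranked 8th, with a mean of 33228.

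Ranking by normalised count favours long genes. The 100 protein-coding genes of highest mean had a median of 6636.5 exonic bases, against 2605.5 for the 100 highest per kilobase of exon and 4648 for all protein-coding genes present. The 2 rankings shared 52 of 100 genes. Per kilobase, Prg2 came 2nd of all genes of at least 200 exonic bases, at 39652, behind Rpph1 (254789) and ahead of Malat1 (24773), Actb (14942), Ftl1 (12910) and Ctsd (9521). Csf2rb (5585), Myh9 (5564), the chemokine Ccl6 (4877) and Alox15 (4703) held ranks 8 to 11. Small genes entered by this measure, among them the Cajal body RNA Scarna2 (7640), the actin-binding Cotl1 (3737) and Tmsb4x (3501), the oxidase subunit Cyba (3774) and the adaptor Tyrobp (2743). The ribonuclease inhibitor Rnh1 (3215), the autophagy receptor Sqstm1 (2814) and the calmodulin gene Calm2 (2352) were also among the 30 highest per kilobase.

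**Figure D2:**
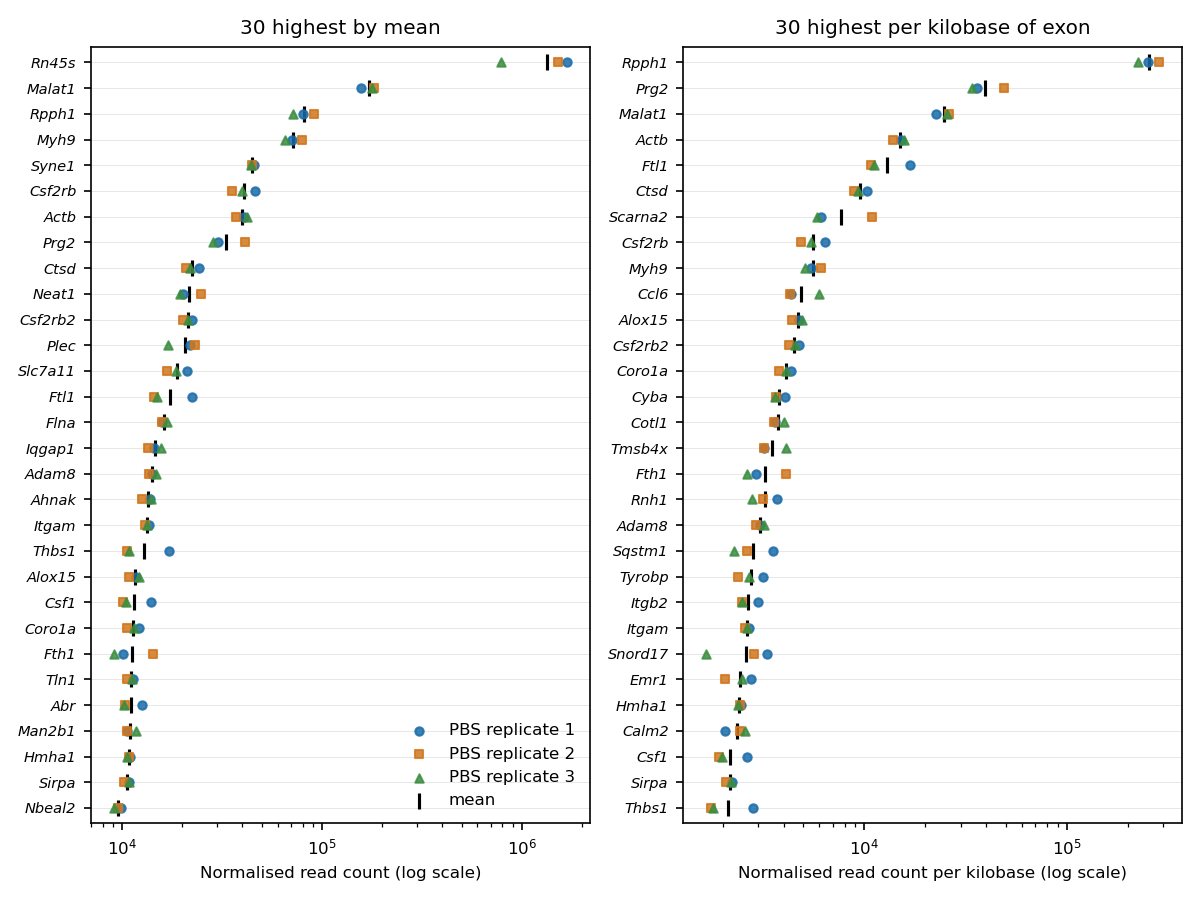
The 30 genes with the highest mean normalised count (left) and the 30 with the highest value per kilobase of exon among genes of at least 200 exonic bases (right), on log axes. Each symbol is a PBS library and the tick is the mean. Rn45s leads on the left and has no length here. Prg2 moves from 8th by mean to 2nd per kilobase.

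The eosinophil label was checked against 5 defining markers, and all of them were present. Prg2, major basic protein, whose crystalline core fills the granule, had 30118, 41054 and 28513 normalised counts in replicates 1, 2 and 3 (33228 ± 6825, SD, n = 3), with replicate 2 above the others. Epx, eosinophil peroxidase, had 4038, 4408 and 3550 (3999 ± 431), and its 3 libraries lay close together. Ccr3, the eotaxin receptor, had 2445, 1810 and 3151 (2468 ± 671), and here replicate 2 was the lowest. Siglec5, the table's name for Siglecf, had 1595, 1233 and 1547 (1459 ± 197). Il5ra had 248, 255 and 322 (275 ± 41.0), the lowest of the 5 by mean and per kilobase (77.0), and ranked 3596 of all genes by mean.

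On GRCm38 (mm10), the annotated genes span chr2:84980461-84983632 on the plus strand for Prg2, chr11:87864000-87875536 on the minus strand for Epx and chr9:124021972-124031689 on the plus strand for Ccr3. Siglecf lies at chr7:43351341-43359531 on the plus strand and Il5ra at chr6:106710357-106749037 on the minus strand. Their exons overlap no other annotated gene. Of the 5 markers, 4 were matched to a RefSeq promoter window (GRCm38.p6), and Prg2 was not. The 250 bases before the RefSeq start are shown because these genes define the culture, and they let a reader see what the starts of 4 present lineage genes look like. Capitals mark letters that a GATA factor can bind, which are AGATAA with the variant AGATAG and the form TGATAA with the variant TGATAG. They also mark the TATA box letters TATAAA. Each was searched on both strands. The windows lie at chr11:87875537-87875786 (minus), chr7:43351091-43351340 (plus), chr9:124021721-124021970 (plus) and chr6:106749038-106749287 (minus), in the order printed.
Epx: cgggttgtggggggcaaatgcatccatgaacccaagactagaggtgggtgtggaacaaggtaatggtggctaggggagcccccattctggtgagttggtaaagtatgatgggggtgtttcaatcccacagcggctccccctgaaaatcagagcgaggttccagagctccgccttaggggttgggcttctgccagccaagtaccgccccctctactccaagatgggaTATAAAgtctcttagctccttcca
Siglecf: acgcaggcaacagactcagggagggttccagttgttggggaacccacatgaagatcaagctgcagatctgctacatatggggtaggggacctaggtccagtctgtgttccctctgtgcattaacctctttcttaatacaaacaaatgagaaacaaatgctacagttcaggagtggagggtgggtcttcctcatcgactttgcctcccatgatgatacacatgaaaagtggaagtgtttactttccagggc
Ccr3: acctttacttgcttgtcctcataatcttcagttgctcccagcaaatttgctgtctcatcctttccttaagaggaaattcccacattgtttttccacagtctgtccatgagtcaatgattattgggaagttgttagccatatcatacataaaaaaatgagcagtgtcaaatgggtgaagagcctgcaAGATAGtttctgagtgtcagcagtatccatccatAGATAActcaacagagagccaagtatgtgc
Il5ra: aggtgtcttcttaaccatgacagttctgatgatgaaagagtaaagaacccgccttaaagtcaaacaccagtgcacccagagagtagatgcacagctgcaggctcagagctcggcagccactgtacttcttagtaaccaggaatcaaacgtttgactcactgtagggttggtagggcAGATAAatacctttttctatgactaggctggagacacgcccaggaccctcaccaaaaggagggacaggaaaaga

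In these windows TATAAA ends 19 bases before the Epx start, AGATAG ends 59 bases and the nearer AGATAA 25 bases before the Ccr3 start, and AGATAA ends 69 bases before the Il5ra start. The Siglecf window holds none of these letters. The GATA letters occur in 27.1% of the 27025 windows of this length, in 16.5% of those of present genes and in 30.1% of those of genes in the table that were not present. TATAAA occurs in 8.12%, 3.67% and 11.5% of the same windows. A match describes letters in a window and not a site in use.

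Of 20 granule proteins and granule-related genes, 12 were present, against 42.7% of all genes, and their median level over all 20 was 148 normalised counts against 3.92 for all genes of the table. The list held 1.202%, 1.39% and 1.18% of the signal other than Rn45s in replicates 1, 2 and 3. Beside the Prg, Epx and Ear genes it holds Alox15, Cd63, Serpinb2, Lgals3, Lgals1 and Rnase6, all present, and Rnase4, not present. These added genes raise both the share present and the signal. Alox15 held 0.230% and Cd63 0.140% of that signal by mean, against 0.661% for Prg2. Prg3, the second major basic protein, had 1103, 1950 and 1148, and replicate 2 was again the highest, as for Prg2. Per kilobase Prg2 was 27.6 ± 3.57-fold above Prg3 and 27.0 ± 3.10-fold above Epx (SD of the ratio over 3 libraries). Cd63, a granule membrane protein, had a mean of 7061 ± 699 and Alox15, the 12/15-lipoxygenase, one of 11542 ± 678. The serpin Serpinb2 had 3179, 2117 and 3053, and the galectins Lgals3 and Lgals1 had means of 1884 ± 307 and 163 ± 9.69.

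The eosinophil-associated ribonucleases were uneven. Ear1 had 743, 838 and 867 normalised counts and Ear6 had 289, 242 and 302. Ear2 stood just inside the threshold, at 10.9, 13.8 and 21.0. Rnase6, another member of the ribonuclease family, had a mean of 133 ± 23.8. Ear5, Ear10 and Ear11 each had a single read in 1 library, Rnase4 reached at most 1.40, and Ear3, Ear4, Ear7 and Ear14 were at 0 in all 3. The Ear genes include near-identical copies, so the division of reads among them, and with it each 0 of an Ear gene, is uncertain.

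**Figure D3:**
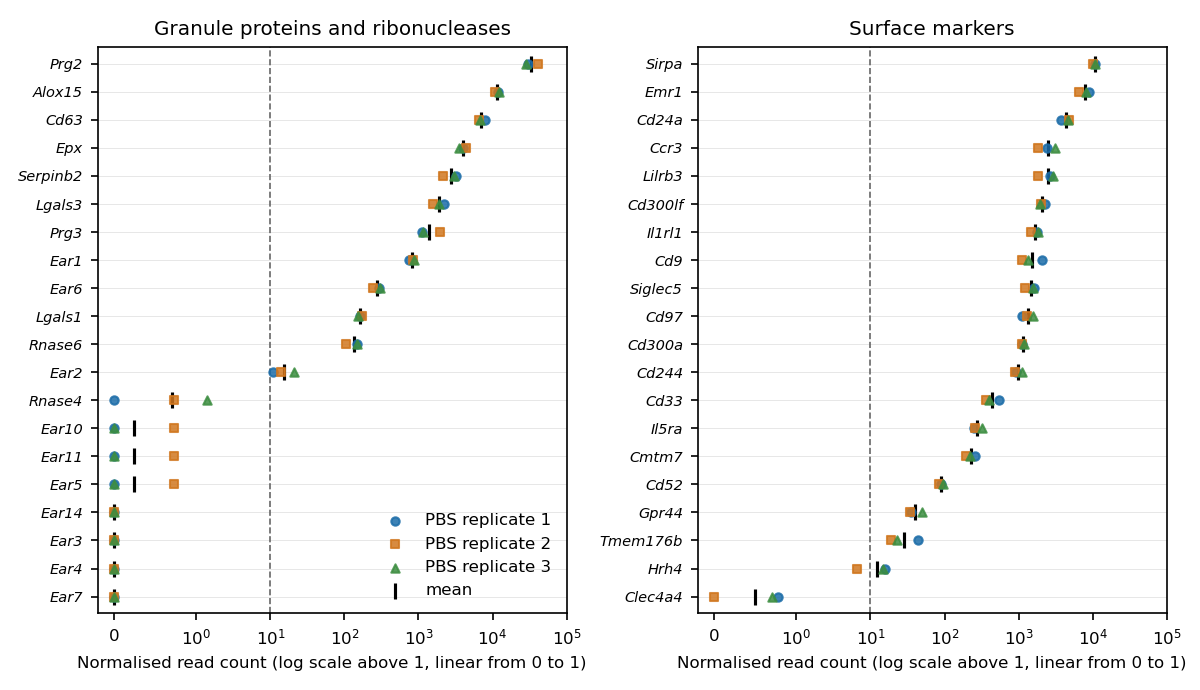
Normalised counts of the 20 granule and granule-related genes (left) and the 20 surface markers (right). The axis is logarithmic above 1 and linear from 0 to 1, with the threshold of 10 dashed. Each symbol is a PBS library and the tick is the mean. The granule and granule-related genes split into 12 above the threshold and 8 at or near 0, while 18 of the 20 surface genes lie above it.

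Of 20 surface markers of eosinophils 18 were present, and 11 were at or above 1000 in all 3 libraries. Sirpa, the inhibitory receptor for CD47, had 10852, 10231 and 10777. Emr1, which encodes F4/80, had 8913, 6636 and 8067, and Cd24a had 3718, 4782 and 4615. Lilrb3, the table's name for the paired receptor gene Pirb, had a mean of 2467 ± 570 and the inhibitory Cd300lf one of 2064 ± 173. The members under 100 were Cd52 (mean 89.4), Gpr44 (39.4), Tmem176b (28.8), Hrh4 (12.3) and Clec4a4 (0.492). Gpr44 encodes the prostaglandin D2 receptor CRTH2, and 39.0% of its exonic bases overlap another gene. Hrh4, the histamine H4 receptor, had 15.5, 6.55 and 14.7 and so missed the threshold in replicate 2. That replicate was the highest for 1 of the 18 present surface genes, against 8 and 9 for replicates 1 and 3. With the libraries set to equal totals, Rn45s included, they were 0 for replicate 2, 3 for replicate 1 and 15 for replicate 3. Rn45s took a smaller share of replicate 3 than of the other libraries, so this scaling raises the other genes of replicate 3.

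Among 37 transcription factors of the lineage 34 were present, with a median over all 37 of 477 normalised counts. Gata1, which is needed for eosinophil development, had 1460, 1307 and 1324, and Gata2 had 699.7, 639.5 and 488. The C/EBP family was led by Cebpb (1992, 1940 and 1541), with 20.6% of its exonic bases shared with another gene, and by Cebpe, the factor of late granulocyte maturation (1243, 1386 and 1412). Cebpa had a mean of 535 ± 122, Cebpg one of 477 and Cebpd one of 143. Sfpi1, the table's name for the PU.1 gene, had 1482, 1393 and 1438 and varied little.

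Klf6 (mean 4222), Ikzf1 (2875) and Klf13 (2090) had the highest counts of this list. Bhlhe40 (1332), Fli1 (1306), Runx1 (1216), Ikzf3 (1214) and Runx2 (1107) also lay above 1000. Id2, an inhibitor of E proteins, had a mean of 590 and Id1 one of 61.1. Xbp1, needed for the secretory load of maturing eosinophils, had 501, 427 and 371. Low factors included Irf8 (24.1, 27.6 and 27.3), which directs monocyte and dendritic fate, and Gfi1 (43.5, 21.8 and 16.8). Mef2c (8.30), Klf4 (6.35) and Klf1 (10.96) were not present.

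The receptor chains for IL-5 stood at very different levels. Per kilobase of exon Csf2rb was 92.2, 68.5 and 60.7-fold above Il5ra in replicates 1, 2 and 3 (73.8 ± 16.4, SD). Csf2ra, the GM-CSF alpha chain, had 1296, 1429 and 1193 normalised counts, and per kilobase it lay 6.03 ± 1.25-fold above Il5ra. Il3ra had 75.3, 80.0 and 59.4. Thus all 3 alpha chains of the family were present, in the order Csf2ra, Il5ra and Il3ra per kilobase in each library.

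Of 35 genes of this receptor family and its JAK and STAT pathway 34 were present, and the exception was Stat4 (mean 3.19). Jak1 had 4017, 3183 and 3761 normalised counts and Jak2 1048, 933 and 1120. Per kilobase the Janus kinases stood in the order Jak1 (506), Jak2 (206), Tyk2 (102) and Jak3 (14.01). Stat6 led the STAT genes per kilobase (753) and had 3499, 3080 and 3370 normalised counts. Stat5b, which with Stat5a carries the IL-5 signal, had 1271, 1264 and 1313, while Stat5a had 199, 235 and 194. The tyrosine kinases Syk (6442), Btk (1513) and Lyn (996), the lipid kinases Pik3cd (3978) and Pik3cg (1013) and the phosphatase Ptpn6 (2927) were also at or near 1000 or more. Of the feedback inhibitors, Cish (98.5), Socs3 (82.9), Socs2 (128) and Socs1 (26.9) were present at low levels, and Pim1, a STAT5 target kinase, had a mean of 283.

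All 24 genes of the IL-33 receptor and its MyD88 pathway were present in cells that had not met IL-33, with a median of 395 normalised counts. Il1rl1, which encodes the receptor ST2, had 1753, 1492 and 1822. Il1rap, its signalling partner, had 60.6, 69.1 and 70.6, and per kilobase Il1rl1 was 41.9 ± 6.08-fold above it. The adaptor Myd88 had 568, 498 and 483. Of the IRAK kinases Irak1 had a mean of 675, Irak2 439, Irak4 244 and the inhibitory Irak3 189. Mapk14 (p38 alpha, 1737) and its substrate Mapkapk2 (1683) had the highest counts among the kinases, and Mapkapk2 was higher in replicate 1 (2284) than in replicates 2 and 3 (1393 and 1371). Nfkb1 had a mean of 858, Rela 399 and Sigirr, an inhibitor of the receptor, 43.3.

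Of 46 cytokine receptors 29 were present. Csf1r, the receptor of CSF1 and a macrophage gene, led with 1732, 1461 and 1718, followed by Tgfbr1 (mean 1350), Il17ra (1127) and Il18rap (1025). Crlf2, a chain of the TSLP receptor, had 812, 744 and 644, but its partner Il7r had 6.21, 2.91 and 6.99 and was not present. Il18r1, the binding chain that pairs with Il18rap, had a mean of 61.5. The interferon receptors Ifngr2 (604), Ifnar1 (574), Ifnar2 (440) and Ifngr1 (314) were all present, as were Tnfrsf1b (516) and Il4ra (423). Il13ra1 (6.35), Il1r1 (1.73), Il2ra (1.01) and Flt3 (4.47) were not present, and Il31ra was at 0. Kit, the receptor of the stem cell factor used in the first days of culture, had 28.7, 25.5 and 32.2.

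Of 27 chemoattractant receptors 11 were present, a share close to the 42.7% of all genes. After Ccr3 came Cxcr4, the marrow retention receptor, with 1319, 1088 and 902, and Ccr1, with 860, 579 and 895. Of the complement receptors C3ar1 had 687, 453 and 691, C5ar2 243, 155 and 142 and C5ar1 116, 53.1 and 67.8, and the order was the same per kilobase (142, 50.5 and 30.8). Ccrl2 (66.5), Cxcr2 (49.0), Cmklr1 (36.7) and Ccr2 (36.0) were low. The formyl peptide receptors Fpr1 (0.485) and Fpr2 (2.99) were not present, and Ccr6, Ccr8, Cxcr1, Cxcr7 and Fpr3 were at 0 in all 3. Replicate 2 was the highest library for 0 of the 11 present receptors.

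Receptors for lipids, histamine and nucleotides were present in 24 of 42 cases, against 42.7% of all genes. P2rx1, an ATP-gated channel, had 3068, 2824 and 3213, and P2rx4 had a mean of 1245. Ptafr, the receptor of platelet-activating factor, had 1573, 1191 and 1372, and Adora3, an adenosine receptor, 980, 888 and 1063. Niacr1, the receptor of niacin and ketone bodies, was higher in replicate 1 (1348) than in replicates 2 and 3 (636 and 701). Ltb4r1, the leukotriene B4 receptor, had a mean of 316, Ptgir, the prostacyclin receptor, 650, and S1pr4 576. Ptger1 had a mean of 774, but 71.0% of its exonic bases overlap another gene. The cysteinyl leukotriene receptors Cysltr1 (0.760) and Cysltr2 (0.492) were not present, and Ptgdr, Adora1, Oxgr1 and Hrh3 were at 0.

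Inhibitory, paired and Fc receptors were present in 38 of 61 cases. Besides Sirpa and Lilrb3, the inhibitory Fc receptor Fcgr2b had 2540, 2453 and 2393 and Cd300lb had a mean of 1755. Tyrobp, the signalling adaptor DAP12, had 2112, 1581 and 1795, and the Fc receptor gamma chain Fcer1g had 572, 483 and 396. Lilrb4 had a mean of 1402, though 35.9% of its exonic bases overlap another gene. Fcgr3 was at 646 and Cd274, which encodes PD-L1, at 801, whereas Fcgr4 (0.777), Fcgr1 (1.91) and Fcer1a (4.55), the binding chain for IgE, were not present. Pdcd1 was at 0 in all 3.

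Among 33 integrins and adhesion genes 26 were present. Itgam, the CD11b chain, had 13565, 12986 and 13307, with 68.7% of its exonic bases overlapping another gene, and its partner Itgb2 had 9124, 7564 and 7618. Cd44 (mean 4253), Itgb7 (3388), Itgal (2964), Itga2b (2625), Itgb3 (1890) and Itgb1 (1593) followed. The VLA-4 alpha chain Itga4, which with Itgb1 or Itgb7 binds VCAM-1 and MAdCAM-1, had 787, 990 and 1201. Selplg, the selectin ligand, had a mean of 1023. Itgax, the CD11c chain, had 311, 273 and 357.

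Pattern recognition and inflammasome genes were present in 30 of 44 cases, with 0 of them at or above 1000 in all 3 libraries. The pore-forming Gsdmd had 855, 943 and 987, Nlrp12 a mean of 745, Tlr13 one of 541 and the adaptor Pycard 400. Naip2 (390), Naip5 (359) and Nlrp3 (79.4) were present, while Nlrc4, the partner of the Naip proteins, had 3.88, 7.28 and 0.699 and was not. Tlr4 had 183, 105 and 164, and its partners Cd14 and Ly96 had means of 73.1 and 13.2. Tlr5 (0.233) and Tlr7 (3.27) were not present, and Tlr3 and Tlr11 were at 0.

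Of 85 cytokines and growth factors 23 were present, under the 42.7% of all genes, and the median over the list was 0.728 normalised counts. Csf1, the macrophage colony-stimulating factor, had 13945, 10149 and 10480 and ranked 22nd of all genes. Grn, progranulin, had 2332, 2396 and 2055, Il1rn, the IL-1 receptor antagonist, 2849, 1521 and 1624, and Tgfb1 2078, 1961 and 1693. Replicate 1 was therefore above the others for Csf1 and Il1rn but not for Grn. Tnfsf14 (mean 858), Il16 (518), Ltb (279) and Hgf (194) came next.

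Of the type 2 cytokines Il4 had 164, 102 and 129 and Il13 had 13.2, 17.5 and 20.3. Osm had a mean of 118, Ebi3 96.4, Vegfa 78.3 and Tnf 66.5, and Il1b stood just inside the threshold at 17.9, 10.2 and 13.98. Il6 (6.99, 12.4 and 9.09) and Inhba (24.1, 14.6 and 4.89) lay on both sides of it and were not present. Csf2 had 0.777, 0 and 2.10. In all 27 members were at 0 in every library, among them Il5, Il3, Il2, Il9, Il33, Il25, Ifng, Il17a, Il12a, Il12b and Areg. IL-5 was supplied in the medium.

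Of 37 chemokines 10 were present and 15 were at 0 in all 3 libraries, including the eotaxin gene Ccl11. Ccl6 was the highest by count and per kilobase (4877), with 7837, 7685 and 10743, followed by count by Ccl9 (713, 531 and 862). The inflammatory chemokines Ccl3 (590, 384 and 488) and Ccl4 (436, 221 and 203) and the platelet chemokine Ppbp (429, 180 and 294) were highest in replicate 1. Cklf had a mean of 241. Cxcl3 (44.6), Cxcl2 (40.1), Pf4 (35.9) and Ccl17 (23.9) were low. Ccl24 (1.24), the other mouse eotaxin, was not present. For 7 of the 10 present chemokines replicate 1 was the highest library and for 0 replicate 2.

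The enzymes of lipid mediators were present in 18 of 35 cases, not far from the 42.7% of all genes. After Alox15 came Pla2g7, the hydrolase of platelet-activating factor (3788, 2713 and 4119), Alox5ap, the 5-lipoxygenase activator (2588, 2202 and 2324), and Alox5 itself (2079, 1996 and 2130). Lta4h, which makes leukotriene B4, had a mean of 786. Ltc4s, which makes leukotriene C4, had 15.5, 9.46 and 5.59 and was not present. Ptgs1 had 771, 704 and 644, while the inducible Ptgs2 had 697, 300 and 283, with replicate 1 apart from the others. Tbxas1, the thromboxane synthase, had a mean of 957 and Hpgds, the prostaglandin D2 synthase, 26.9.

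Of 15 NADPH oxidase genes 8 were present, not far from the 42.7% of all genes. The membrane subunits Cybb (815, 851 and 902) and Cyba (4220, 3786 and 3759), the cytosolic subunits Ncf4 (mean 2046) and Ncf1 (1822), the GTPases Rac2 (2020) and Rac1 (958) and the proton channel Hvcn1 (749) were among them. The 8 genes had a median coefficient of variation (CV, the SD as a percent of the mean) of 5.69%. The 7 other members, oxidases and organisers of other tissues, were not present, with Noxo1 nearest at 10.1, 12.4 and 9.78.

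Of 39 genes of apoptosis and survival 33 were present. Mcl1, the survival factor of granulocytes, had 6554, 5706 and 5626, and per kilobase it was 55.9 ± 7.66-fold above Bcl2l1, which encodes BCL-XL. Bcl2 had 290, 178 and 185. The pro-apoptotic Bcl2l11, which encodes BIM, had 2197, 1852 and 1661, Pmaip1 had 2320, 1376 and 1355, and Bax had a mean of 1007. Bcl2a1b (38.9) and Bcl2a1a (12.2) were present and Bcl2a1d (4.94) was not, but these genes are near-identical and their reads may be shared.

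All 54 genes of DNA replication and mitosis were present, with 21 at or above 100 in all 3 libraries and a median of 92.9. Mki67, a marker of cycling cells, had 1062, 1166 and 1111 and Top2a had 492, 693 and 521. The helicase genes Mcm7 (mean 297), Mcm5 (282), Mcm6 (274) and Mcm3 (246) and the clamp Pcna (254) had between 58.8 and 106 normalised counts per kilobase. The mitotic genes Ccnb1 (45.9), Plk1 (40.2) and Cdk1 (33.2) had between 6.73 and 18.3. The cell cycle inhibitor Cdkn1b had 733, 723 and 863 and Cdkn1a had 565, 402 and 333. Whether these transcripts came from many cells at a low level or from few cycling cells cannot be told apart in bulk RNA, nor can fewer cells of a type from less RNA per cell in any list given here. Replicate 2 was the highest library for 43 of the 54 genes.

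Of 37 immediate early genes, which cells switch on within minutes of a stimulus, 33 were present. Klf6, Ier5 (mean 2519), Btg2 (2158), Jund (2103), Fosl2 (1867), Rhob (1700), Dusp1 (1622) and Zfp36 (1551) were the highest. Jun had 1079, 685 and 605, Fos 639, 477 and 390, Nr4a1 620, 290 and 268 and Egr1 277, 216 and 171. Replicate 1 was the highest library in each of these 4 genes and in 29 of the 33 present. Myc (8.54, 5.82 and 4.89) was not present.

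Heat shock and endoplasmic reticulum stress genes were present in 23 of 24 cases, and replicate 1 was the highest for 16 of them. Hsp90ab1, a constitutive chaperone, had 5676, 3620 and 2932, Hspa8 had 2399, 1136 and 1290 and Hsp90aa1 had 771, 327 and 325. The inducible Hspa1b had 383, 98.2 and 128 and Hsph1 had 1038, 316 and 324. Of the endoplasmic reticulum chaperones, Calr (1802, 3053 and 2196) and Hsp90b1 (2560, 3334 and 2485) were highest in replicate 2, whereas Hspa5 (1530, 1446 and 1254) was highest in replicate 1.

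Interferon-stimulated genes were present in 17 of 39 cases, near the 42.7% of all genes. Irf1 (332, 367 and 362) and Stat2 (328, 362 and 359) were the highest, whereas Isg15 (7.16), Ifit1 (1.27), Rsad2 (7.86) and Mx1 (4.41) were not present. For antigen presentation 23 of 30 genes were present. The class I genes H2-D1 (5838, 4752 and 5425), H2-K1 (3102, 2754 and 3220) and H2-T23 (mean 2602) were high, with B2m at 388, 253 and 483. Class II genes were low and uneven: Cd74, the invariant chain, had 225, 59.7 and 128, H2-Eb1 had 116, 19.6 and 44.0 and H2-Aa had 82.3, 19.6 and 40.5. For these 3 class II genes replicate 1 was the highest and replicate 2 the lowest.

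Of 18 non-coding RNAs and RNA host genes 12 were present. Rmrp, the RNA of the mitochondrial RNA processing ribonuclease, had 2924, 2542 and 3029. The small nucleolar RNA hosts Gas5 (339, 497 and 346), Snhg5 (179, 158 and 105) and Snhg8 (mean 98.6) were lower, and the telomerase RNA Terc had a mean of 18.5. The table held 644 rows of microRNA genes, of which 15 were present and 443 were at 0. These rows count reads on the gene and not mature microRNAs. Mir142 (mean 297), Mir682 (186) and Mir3064 (70.0) have 100% of their exonic bases overlapping another gene, and their reads may be shared with it.

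Markers of other cells that a marrow culture could hold were read beside these results. Of all genes 42.7% were present, and a list near this share says little about its cells. Of 25 neutrophil markers 18 were present, with a summed level of 5969, 6767 and 5654 in replicates 1, 2 and 3. Padi4 (2498), Ngp (1426), S100a9 (592), Ltf (563) and Mmp8 (344) were the highest, Mpo (95.9), Ctsg (22.7) and Camp (20.7) were low, Elane (10.9) missed the threshold in replicate 1, and Stfa1, Stfa2 and BC100530 were at 0. Of 25 mast cell and basophil markers 10 were present, near the share of all genes, with sums of 4385, 2848 and 2542. Hdc, histidine decarboxylase, made up most of these sums, with 3058, 1476 and 1291. The basophil protease genes Prss34 (90.1, 204 and 263) and Mcpt8 (17.1, 36.4 and 65.7) and the mast cell and basophil gene Cpa3 (30.3, 44.4 and 58.0) had the opposite order, lowest in replicate 1. The mast cell proteases Mcpt1, Mcpt2, Mcpt4 and Mcpt9 were at 0.

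Monocyte, macrophage and dendritic cell markers were present in 13 of 34 cases, near the 42.7% of all genes, with sums of 4604, 3868 and 4684. Csf1r, Emr4 (845), Ly6c2 (689), Lyz2 (367) and Itgax led them, and replicate 2 was the lowest in the sum. C1qb (4.76) and Mertk (1.26) were not present and C1qa, Marco and Timd4 were at 0. Of 29 T, B and NK cell markers 3 were present, Cd79a (49.9), Nkg7 (16.4) and Cd3d (17.1, 16.7 and 11.2), with sums of 131, 109 and 124, and Rag1, Rag2, Ncr1 and Gzma were at 0. Erythroid, megakaryocyte and progenitor markers were present in 9 of 32 cases (sums 4107, 3865 and 3118), with the globin genes at 0 and Itga2b making up most of the sum. Stromal and endothelial markers were present in 4 of 21 cases (1082, 1101 and 1368), of which Pecam1 held 984, 959 and 1270. Between 1 and 12 genes of each of these 6 lists also stand in another list. The part of such cells in the levels given above was not tested.

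The Y-linked genes Ddx3y (636, 651 and 415), Kdm5d (333, 311 and 181), Eif2s3y (110, 156 and 85.3) and Uty (94.0, 111 and 69.9) were present, and Xist, which is transcribed from an inactive X chromosome, had a single read in replicate 3. Replicate 3 was the lowest in each of the 4 Y-linked genes, with a median log2 difference of -0.63 from the mean of the other libraries.

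Over all lists 558 of 925 distinct members in the table (60.3%) were present. The members just inside the threshold were Ms4a2 (10.1, 14.6 and 23.1), Il1b, Bcl2a1a, Ear2, Fcer2a (10.9, 13.8 and 13.3) and Bst2 (17.1, 10.9 and 19.6). Those just outside it were Noxo1, Trem2 (20.2, 9.46 and 16.1), Treml4 (17.9, 9.46 and 15.4), Alas2 (10.1, 9.46 and 11.9), Cd200r3 (9.32, 10.9 and 14.7) and Ccr9 (11.6, 12.4 and 9.09). The lowest value of each of these genes lies within counting error of 10 at this depth.

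**Figure D4:**
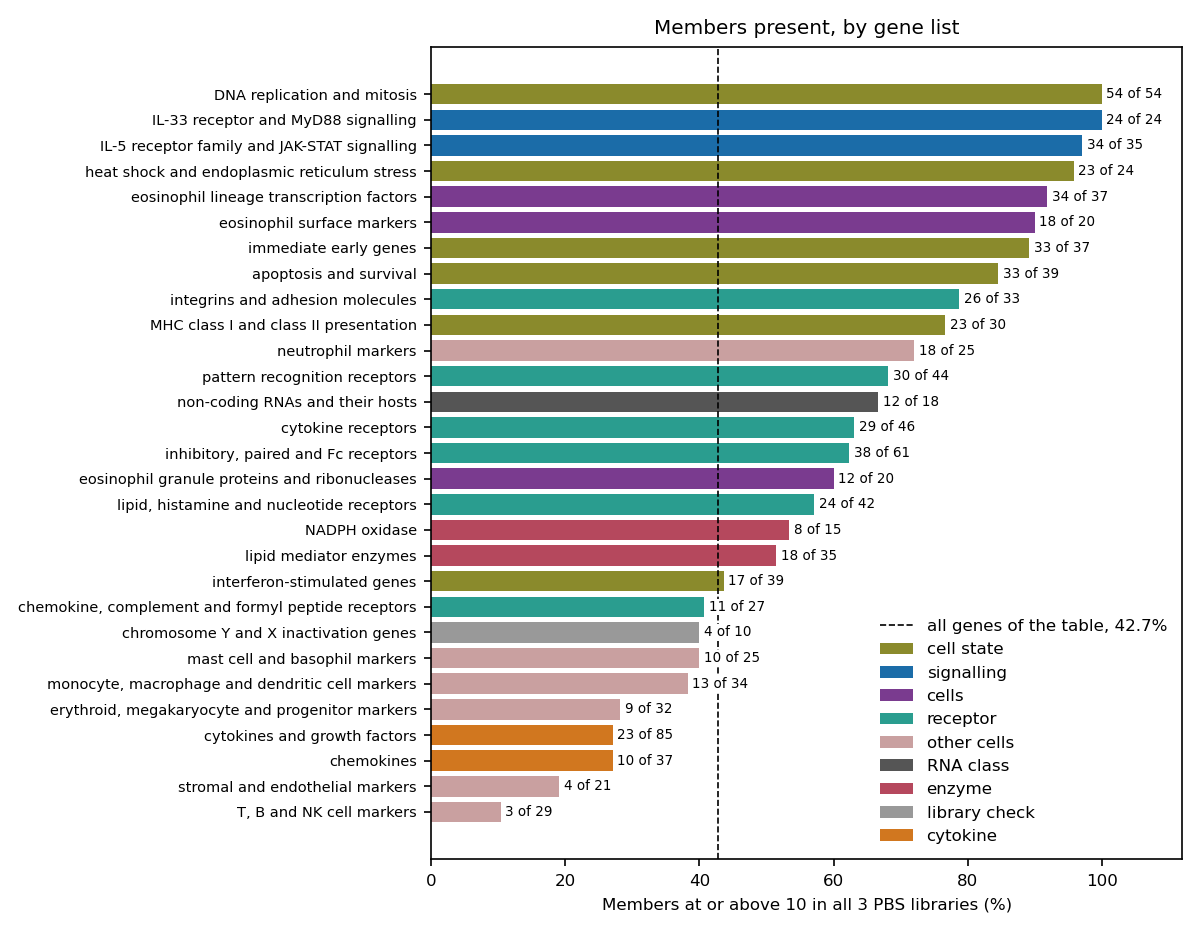
Share of the members of each gene list at or above 10 in all 3 PBS libraries, with the number present of the number in the table beside each bar and the kind of list in colour. The dashed line is the share of all genes of the table, 42.7%. DNA replication, signalling and transcription factor lists stand near the top, and cytokines, chemokines and markers of lymphoid and stromal cells stand below the line.

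The 3 libraries were alike across genes. On log2(value + 1) over the 10012 present genes, Pearson's r was 0.986 for replicates 1 and 2, 0.986 for 1 and 3 and 0.989 for 2 and 3. These correlations are across genes, which are not independent replicates. More than a 2-fold difference was found for 131, 123 and 71 genes in the same pairs. The median CV of present genes was 11.2%, and the median of the CVs set by counting error was 6.89%. It was 19.5% for genes with means between 10 and 30, where counting gives 18.8%, and 7.49% for genes at or above 3000, where counting gives 1.29%. A CV from 3 libraries tends to fall under its true value, so these pairs understate the spread beyond counting. The variance was above that of counting for 51.5% of the genes between 10 and 30 and for 99.5% of those at or above 3000. A variance from 3 libraries more often falls under its true value than over it. Counting alone would therefore put only a minority of genes above. An edgeR fit of the recovered reads with an intercept only put the common biological CV at 11.98%.

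Among the 6072 genes with a mean of at least 100, 118 (1.94%) had a CV over 30% and 1178 (19.4%) a CV under 5%. Replicate 1 was the highest library for 80 of the 118 variable genes, replicate 2 for 27 and replicate 3 for 11. Over all 6072 genes these numbers were 2228, 1913 and 1931. The largest CVs were those of Hspa1b (77.1%), Hsph1 (74.1%) and Hspa1a (73.7%), all cytosolic chaperones. They were followed by the peptide transporter Slc15a2 (147.6, 36.4 and 169.8 normalised counts), Cd74, the adhesion receptor Ceacam1 (468, 180 and 187), the linker histone Hist1h1a (639, 295 and 231) and the lipase Lpl (199.6, 55.3 and 130.0).

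Ptgs2, Irg1, the itaconate enzyme gene (508, 194 and 237), Hsp90aa1 and the ribosomal protein gene Rpl21 (83.9, 215 and 103) completed the 12 most variable. In 10 of these 12 genes, all but Slc15a2 and Rpl21, replicate 1 was the highest. At the other end Zxdc (890, 891 and 891), Atg9a (447, 447 and 448), Dopey2 (733, 734 and 731) and Actg1 (2504, 2484 and 2500) had CVs between 0.0626% and 0.432%, under the 1.72% to 4.05% that counting error would give. Ankrd52, Madd, Clpx, Atg16l1, Irf3, Dido1, Nab1 and Slco4c1 completed the 12 least variable, with CVs between 0.452% and 0.557%. The lowest of 6072 CVs from 3 libraries can fall this low through counting alone, so steadier levels of these genes are not shown.

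The same libraries stood apart in several gene lists. For each present member the log2 value of a library was set against that of the mean of the other 2, and the median over the list was taken. It was 0.48 for replicate 1 in immediate early genes, 0.40 for replicate 1 in heat shock genes and 0.60 for replicate 1 in chemokines. Replicate 2 stood at 0.36 in DNA replication and mitosis, at -0.60 in chemoattractant receptors and at -0.43 in markers of monocytes, macrophages and dendritic cells. For granule and granule-related genes the medians of the 3 libraries lay between -0.15 and 0.05, and for the IL-5 receptor pathway between -0.13 and 0.08. Setting the libraries to equal totals, Rn45s included, moved the median of all present genes by -0.10, -0.04 and 0.15 in replicates 1, 2 and 3. With Rn45s left out of the totals the shifts were -0.025, 0.004 and 0.021. With Rn45s in the totals replicate 1 was still the highest for 21 of the 33 immediate early genes and 14 of the 23 stress genes. Replicate 2 was the highest for 39 of the 54 replication genes. With 1 group and 3 libraries there is no test of these differences, and the labels name nothing that sets the libraries apart.

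**Figure D5:**
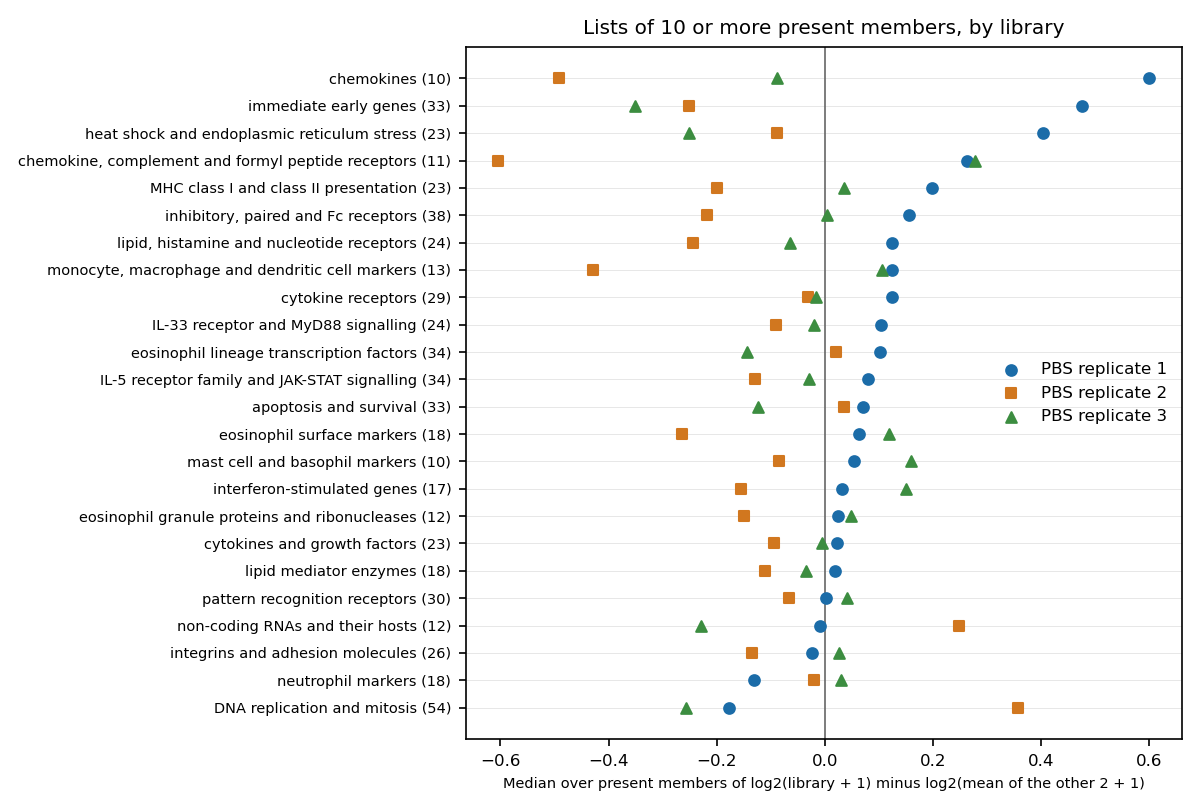
For each gene list with 10 or more present members (number in brackets), the median over those members of log2(value + 1) in a library minus that of the mean of the other 2 libraries. Replicate 1 lies far to the right for chemokines, immediate early genes and heat shock genes, and replicate 2 for DNA replication and mitosis.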

How the data were processed

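The authors deposited 1 table of gene counts divided by a factor for each library, a normalised signal per gene. The submitters' processing notes name the tools HISAT2, HTSeq and DESeq2 and the build mm10. Their versions, the annotation and whether counting used the strand were not given in the sources used here, so reads of overlapping genes may not be told apart. Library preparation was directional and ribosomal RNA was depleted, per the labels' protocols. The 3 PBS columns of 6 were used, and 3 were not used.

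In each library the smallest value above 0 was taken as the worth of a read. Divided by it, 100% of the values were whole to within 0.1 of a read, which gave the reads and the depth. Of 23420 genes, 22994 were matched to GENCODE vM21 (GRCm38), 1257 of them by an older symbol, for spans, exonic length and exon overlap. Levels were compared between genes per kilobase of exon only for genes of at least 200 exonic bases.

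Presence meant a value of at least 10 in all 3 libraries. Values are described with the SD, and there is no test. The counting CV is that of Poisson reads. edgeR 4.0.16 in R 4.3.3 gave the common dispersion and was tested on simulated data. Python 3.11.15, numpy 2.4.6, pandas 2.3.3 and matplotlib 3.10.9 served for the rest.

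The genes, members and 30 lists were chosen with earlier results of these data known, so shares of lists are descriptions. For mitochondrially encoded transcripts 0 of the names searched were found, and they were not analysed here. The rule for named genes covered the 30 highest by mean and per kilobase, the 5 markers and all granule genes, up to 8 present members of each other list and every present member of short lists, absent members that define a cell type or were at 0, the 12 most and 12 least variable genes with a mean of at least 100, and list members nearest 10. Predicted gene models were left out of the rankings. The text names part of the list members it covers, and some beyond the limit of 8, chosen for their role after their values were seen. Alternatives were other thresholds, scalings, totals, pseudocounts and leaving out each library.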

Additional observations from a re-analysis of the deposited data

How the results depend on the processing

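No paired analysis was possible because the result comes from no test, and the libraries that share replicate numbers with the PBS libraries were not used. The number of genes present stayed within 1.5 times 10012 under every alternative, from 7307 at a threshold of 50 to 10857 at a threshold of 5, and the list members present ranged from 415 to 600. It was 10132, 10137 and 10161 without PBS replicate 1, 2 or 3. Counts of single lists moved by over 1.5 times in 15 of 348 cases, at thresholds of 5, 20 or 50. The share of Rn45s without 1 library ranged from 18.5% to 24.0%. The share of the top 100 genes was 24.9% with Rn45s left out of the total, by construction, and ranged from 38.7% to 43.0% without 1 library. The median CV of 11.2% was 14.2% with equal totals that include Rn45s and 11.4% with equal totals without Rn45s. It was 9.48% for genes at or above 50 in all 3 and 18.0% for genes with a mean above 0. Without 1 library it ranged from 8.47% to 9.57%, where fewer samples and other genes enter. The edgeR common biological CV was 10.4% without replicate 1 and 12.6% without replicate 2 or 3. Depth limits the lowest genes: a value of 10 stands for 12.9 to 14.3 reads.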

Other observations

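Gene groups that the results above do not cover were chosen after their values were seen and are given as values. Of 86 ribosomal protein genes 79 were present, and the whole group held 1.24%, 1.21% and 1.14% of the signal other than Rn45s in replicates 1, 2 and 3. The highest were Rps3 (5692, 4674 and 4472 normalised counts), Rps14 (4403, 4150 and 4216) and Rps9 (2864, 2676 and 2220). Rps3 ranked 88th of all genes by mean, and Prg2 alone held 0.661% of the same signal. These shares are of reads and are not corrected for length. Per kilobase of exon Rps14 was at 1778 and Rps3 at 1103, against 39652 for Prg2.

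Histone cluster genes, most of whose transcripts lack a poly(A) tail, were present in 33 of 68 cases (48.5%), near the 42.7% of all genes. The linker histone Hist1h1c had 2778, 2202 and 2985, Hist1h1e 722, 930 and 1015 and Hist1h4d 661, 568 and 653. Replicate 1 was the highest library for 21 of the 33.

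Small nucleolar and Cajal body RNAs were present in 25 of 124 cases and held 0.113% ± 0.0271 (SD, n = 3) of the signal. Scarna2 had 2531, 4531 and 2427, with replicate 2 apart from the others. Snord17 had 787, 677 and 393 and Scarna6 401, 291 and 375. For 59 of the 124 at least 50% of the exonic bases overlap another gene.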
